A study of Rattus norvegicus with 13 samples.

Results

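The 9 genes described here encode the nuclear machinery through which thyroid hormone (TH) acts on transcription: the TH receptors Thra and Thrb, their retinoid X receptor partners Rxra and Rxrb, the corepressor Ncor1 with the deacetylase Hdac3, and the coactivators Ncoa1, Ncoa2 and Med1. They were chosen by gene name. All 9 names were present, each on 1 of the 14716 rows of the deposited expression table, and all 9 passed the filter on low values, a mean of 10 or more normalized counts, which left 14606 rows to test. The samples were the posterior ventricular zone (VZ), the progenitor layer that lines the ventricle, cut by laser from cresyl violet stained sections of male Long Evans rat pups on postnatal day 2 (PN2), 1 pup per litter. Control pups (n = 7) were euthyroid offspring of dams given 0 ppm propylthiouracil (PTU) in the drinking water. PTU exposed pups (n = 6) were hypothyroid offspring of dams given 3 ppm PTU, a drug that blocks TH synthesis in the thyroid gland. The labels name no transgene or deletion in either group. The captured epithelium was recognised by its layered appearance, and total RNA was sequenced from it as bulk tissue, so each value is a mixture over all captured cells. For every difference below, fewer cells that express a gene and less RNA per cell cannot be told apart.

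TH receptors sit on DNA at TH response elements, mostly as heterodimers with a retinoid X receptor. Without hormone they hold a corepressor complex built on NCOR1 that carries the histone deacetylase HDAC3, and when triiodothyronine binds, this complex is exchanged for coactivators of the NCOA family and for the Mediator complex, which the receptor contacts through MED1. Thra is the receptor gene best known from the fetal and neonatal brain, whereas Thrb is known for later brain regions, the retina, the cochlea and pituitary feedback.

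The stretches of DNA just before the annotated starts of the receptor genes are shown because Thra and Thrb encode the receptors of the hormone that PTU lowers. They come from RefSeq on the GRCr8 build, in which 7 of the 9 genes were matched, with 8 windows of 250 bases each. Capitals mark GGGCGG or its complement, the GC box letters bound by SP1-type factors, searched on both strands.
Thra start 1, chr10:84197891-84198140, plus strand: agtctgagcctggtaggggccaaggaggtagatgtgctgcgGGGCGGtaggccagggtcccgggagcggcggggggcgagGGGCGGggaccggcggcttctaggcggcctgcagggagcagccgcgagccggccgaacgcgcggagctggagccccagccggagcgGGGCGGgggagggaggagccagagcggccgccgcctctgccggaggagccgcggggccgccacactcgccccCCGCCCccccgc
Thra start 2, chr10:84209708-84209957, plus strand: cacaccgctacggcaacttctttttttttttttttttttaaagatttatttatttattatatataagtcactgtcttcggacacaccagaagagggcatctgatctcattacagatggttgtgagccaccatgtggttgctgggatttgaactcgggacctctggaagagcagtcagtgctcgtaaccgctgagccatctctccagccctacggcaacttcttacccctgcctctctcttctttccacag
Thrb, chr15:10461447-10461696, minus strand: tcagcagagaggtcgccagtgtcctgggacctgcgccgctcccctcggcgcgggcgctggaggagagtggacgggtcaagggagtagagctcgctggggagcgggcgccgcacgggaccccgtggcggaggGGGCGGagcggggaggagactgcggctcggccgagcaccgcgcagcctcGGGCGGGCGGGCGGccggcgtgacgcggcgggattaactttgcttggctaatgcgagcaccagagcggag
Counting matches that do not overlap, the window of Thra start 1 held 4 and the window of Thrb held 3, whereas the window of Thra start 2 held 0. GC content was 79.6% at Thra start 1, 74.0% at Thrb and 44.8% at Thra start 2, against a median of 51.2% over 33469 windows of the same length. GGGCGG was found in 7 of the 8 windows of the 9 genes and in 30.5% of all windows. AGGTCA, the core element shared by TH and retinoid receptors, was found in 0 of the 8 windows and in 14.1% of all windows, and CCAAT in 0 of the 8 and in 34.0% of all. A match describes letters only, and the single Thra row of the expression table does not separate the Thra starts.

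The reads behind the deposited rows, estimated from the smallest step between values, numbered 22295668 to 43513105 in control pups and 28415340 to 44388397 in PTU exposed pups. They cover those rows only and are not the full sequencing depth. Of 10 VZ progenitor markers, among them Sox2, Pax6 and Vim, none was at 0 in any pup. That also held for the markers of other cell types below, so it does not verify the VZ label. The summed level of the progenitor markers ran from 75130.3 to 104572 normalized counts in control pups and from 62176 to 82649 in PTU exposed pups, with 10 of 10 markers lower on average. The summed level of 10 neuron and neuroblast markers was 56817 to 79904 in control pups and 71155 to 117667 in PTU exposed pups (8 higher, 2 lower), and that of 10 choroid plexus markers was 51425 to 144605 and 23856 to 102819.8 (10 lower). Choroid plexus markers were thus present in every pup, although the authors state that choroid plexus cells were not part of the RNA sequencing. None of the progenitor, neuron and choroid plexus markers had an adjusted p of 0.05 or less in limma. An unadjusted p under 0.05 was found for 6 progenitor, 5 neuron (4 higher, 1 lower) and 5 choroid plexus markers, beside 16.3% of all rows. Of 6 endothelial (4 higher, 2 lower), 8 microglial (6 higher, 2 lower) and 5 oligodendrocyte precursor markers (5 higher, 0 lower), none had an adjusted p of 0.05 or less either. Of these, 0, 1 and 1 had an unadjusted p under 0.05, and no marker of any list was at 0 in any pup. The part of these cell types in the differences below was not tested beyond the relations and covariates named.

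**Figure D1:**
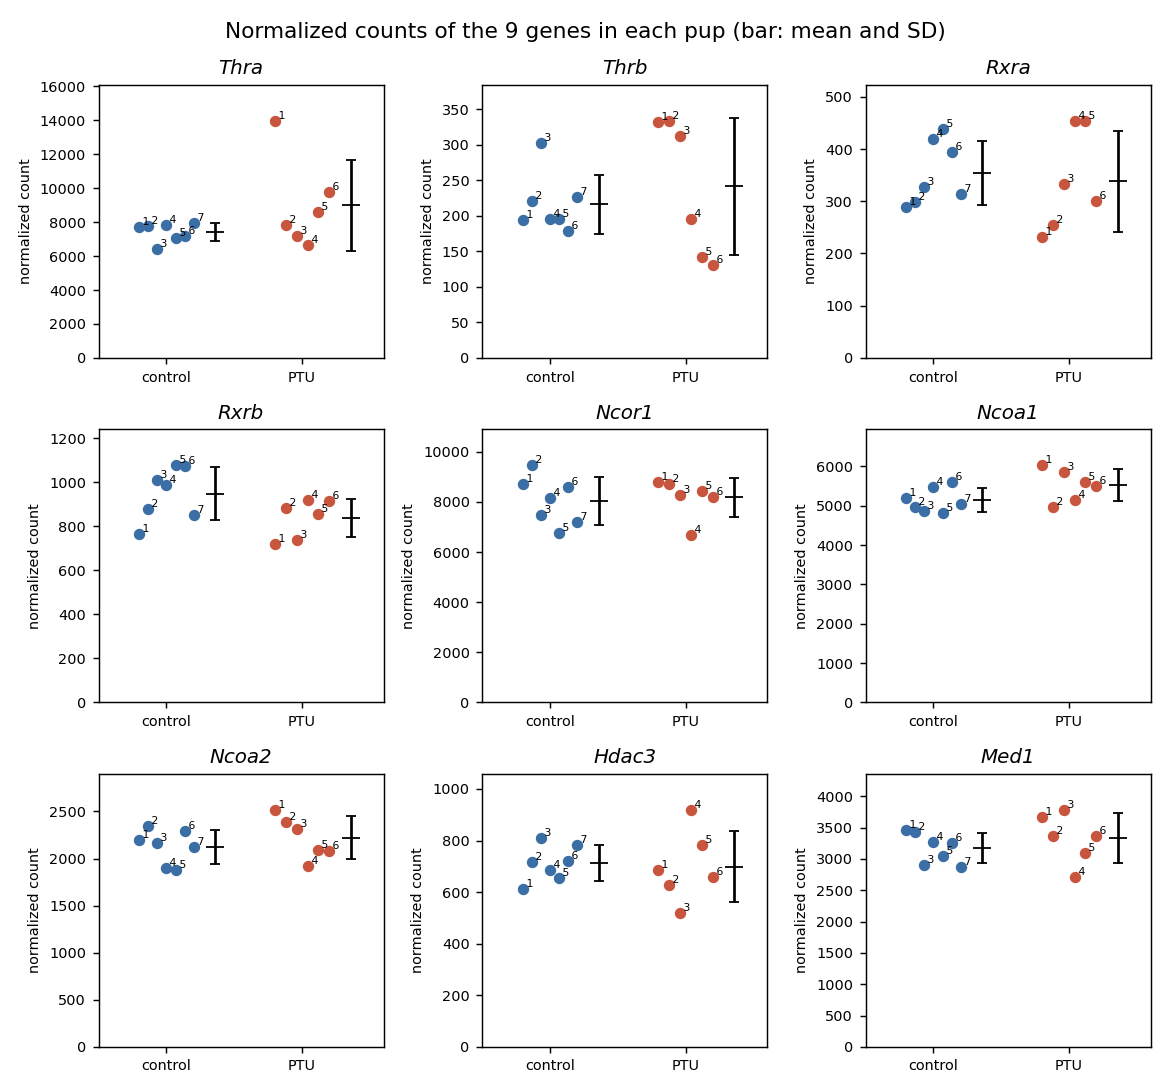
Normalized counts (vertical axes, from 0) of the 9 genes in each pup, with 7 control pups in blue, 6 PTU exposed pups in red, the replicate number beside each point, and the mean with its SD as a bar. The groups overlap in all 9 panels, and PTU exposed pup 1 stands at 13992 in the Thra panel.

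Thra, which encodes the TH receptor alpha, had normalized counts with a minimum of 6447, a median of 7737 and a maximum of 7957 in control pups. In PTU exposed pups the minimum was 6650.0, the median 8203 and the maximum 13992. The control pups lay close together and the PTU exposed pups did not: 3 of the 6 stood above every control pup, PTU pup 1 furthest, and the others lay among the controls. The means, here and below of 7 control and 6 PTU exposed pups with the SD, were 7417 ± 548 and 8997 ± 2681, and the log2 fold change, on the log2(normalized count + 1) scale, was 0.24 ± 0.13 (SE; 95% interval -0.047 to 0.52), with an adjusted p of 0.386 in limma and p = 0.13 in a two-sided exact permutation test. Without PTU pup 1 the PTU mean was 7998 ± 1224 and the log2 fold change was 0.10. The coefficient of variation (CV) was 7.39% in control pups and 29.8% in PTU exposed pups, or 15.3% without PTU pup 1. In the RefSeq annotation of GRCr8 the span of Thra overlaps those of Nr1d1 and Med24, that of Rxrb overlaps Slc39a7 and that of Ncor1 overlaps Pigl. The span of Thrb holds or overlaps 8 other annotated entries, among them the pseudogenes Eif1-ps2 and Bod1-ps1, that of Ncoa1 a transfer RNA gene and that of Ncoa2 the microRNA gene Mir378b. Whether the counting used strand is not given in the sources used here, so reads from shared stretches are uncertain for these genes.

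Thrb, the gene of the TH receptor beta, had a minimum of 178, a median of 195 and a maximum of 302 normalized counts in control pups. In PTU exposed pups these were 131, 254 and 334. PTU pups 1, 2 and 3 stood above every control pup, PTU pups 5 and 6 stood below every control pup, and PTU pup 4 lay among them, so the PTU exposed pups spread to both sides of the control range. The means were close, at 216 ± 41.5 and 241 ± 95.8, and the log2 fold change was 0.072 ± 0.23 (95% interval -0.42 to 0.56; limma adjusted p = 0.905; exact permutation p = 0.755). The CV was 19.2% in control pups and 39.8% in PTU exposed pups. An estimated 140 to 394 reads lay behind each value, for which counting error alone gives a CV of at most 8.45%.

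The log2 ratio of Thra to Thrb within a pup, which does not depend on the scaling of that pup, was 5.11 ± 0.32 in control pups and 5.28 ± 0.70 in PTU exposed pups. It ran from 4.41 to 5.32 among controls and from 4.52 to 6.21 among PTU exposed pups. The highest were PTU pup 6 at 6.21 and PTU pup 5 at 5.91, which were also the pups with the least Thrb. As the transcript lengths were not at hand, this ratio compares pups and says nothing of which receptor is the more abundant.

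Rxra encodes retinoid X receptor alpha, a shared heterodimer partner of TH, retinoic acid, vitamin D and lipid-sensing receptors. Its normalized counts had a minimum of 288, a median of 328 and a maximum of 439 in control pups, and of 232, 317 and 455 in PTU exposed pups. PTU pups 4 and 5 lay above every control pup and PTU pups 1 and 2 below every control pup. The means were 355 ± 61.7 and 338 ± 96.8, with a log2 fold change of -0.10 ± 0.18 (95% interval -0.47 to 0.27; limma adjusted p = 0.814; exact permutation p = 0.586). The CV was 17.4% in control pups and 28.6% in PTU exposed pups.

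Rxrb, the gene of retinoid X receptor beta, had a minimum of 764, a median of 986 and a maximum of 1079 normalized counts in control pups, and of 720.1, 870.4 and 918 in PTU exposed pups. All 6 PTU exposed pups lay below the control mean and 2 of them below every control pup, although the groups overlapped. The means were 949.5 ± 119 and 839 ± 87.6, with a log2 fold change of -0.18 ± 0.10 (95% interval -0.39 to 0.043; limma adjusted p = 0.405; exact permutation p = 0.0985). Within a pup, the log2 ratio of Rxra to Rxrb was -1.43 ± 0.13 in control pups and -1.35 ± 0.37 in PTU exposed pups, where it ran from -1.79 to -0.92.

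Ncor1 encodes the scaffold of the corepressor complex that receptors hold without hormone. Its normalized counts had a minimum of 6744, a median of 8145 and a maximum of 9471 in control pups, and of 6682, 8363 and 8798 in PTU exposed pups. PTU pup 4 was the lowest of the 13 pups, and the other PTU exposed pups lay inside the control range. The means were 8050.4 ± 957 and 8189.6 ± 775, with a log2 fold change of 0.028 ± 0.092 (95% interval -0.17 to 0.22; limma adjusted p = 0.909; exact permutation p = 0.755).

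Hdac3, the deacetylase that NCOR1 activates, had a minimum of 611, a median of 716 and a maximum of 809 normalized counts in control pups, and of 519, 674 and 920.2 in PTU exposed pups. The highest and the lowest of the 13 pups were both PTU exposed, pup 4 and pup 3. The means were 712 ± 69.3 and 699 ± 138, with a log2 fold change of -0.043 ± 0.12 (95% interval -0.30 to 0.21; limma adjusted p = 0.89; exact permutation p = 0.727).

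Ncoa1 encodes a coactivator that ligand-bound receptors recruit directly and that brings in histone acetyltransferases. It had a minimum of 4819, a median of 5044 and a maximum of 5606 normalized counts in control pups, and of 4976, 5552 and 6033 in PTU exposed pups. Of the PTU exposed pups, 3 lay above every control pup and 2 below the control mean. The means were 5141 ± 305 and 5518 ± 407, with a log2 fold change of 0.10 ± 0.070 (95% interval -0.047 to 0.25; limma adjusted p = 0.484; exact permutation p = 0.0862). This interval, the narrowest of the 9, spans differences from -3.22% to 18.9%.

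Ncoa2, a coactivator of the same family, ran from 1878 through a median of 2160.3 to 2340.2 normalized counts in control pups and from 1916 through 2205 to 2520.3 in PTU exposed pups. The groups overlapped over most of their range, with means of 2128 ± 181 and 2219.8 ± 227 and a log2 fold change of 0.059 ± 0.084 (95% interval -0.12 to 0.24; limma adjusted p = 0.756; exact permutation p = 0.445). Med1, the Mediator subunit that binds ligand-bound nuclear receptors, ran from 2868 through 3249.6 to 3461 in control pups and from 2714 through 3371 to 3788 in PTU exposed pups. Its PTU exposed pups reached beyond the control range at both ends, and the means of 3176 ± 241 and 3334 ± 392 gave a log2 fold change of 0.065 ± 0.085 (95% interval -0.11 to 0.24; limma adjusted p = 0.734; exact permutation p = 0.424). The log2 ratio of Ncor1 to Ncoa1 within a pup, a corepressor set against a coactivator, was 0.64 ± 0.15 in control pups and 0.57 ± 0.14 in PTU exposed pups.

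**Figure D2:**
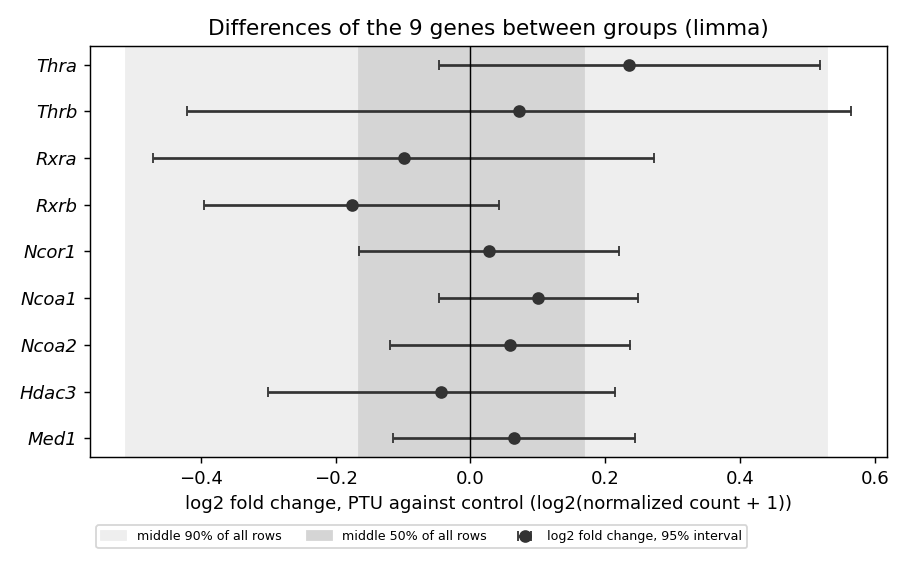
Log2 fold change of each of the 9 genes, PTU exposed against control, from limma on log2(normalized count + 1), with 95% intervals as bars and the middle 50% and 90% of all tested rows as shaded bands. All 9 intervals include 0, and only the estimates of Thra and Rxrb lie outside the darker band, which runs from -0.17 to 0.17.

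Of the 9 genes, 0 had an adjusted p of 0.05 or less in limma, where 0 of 14606 rows (0.0%) did, and the smallest adjusted p of any row was 0.0981. The 0 over all rows holds for limma on log2 values, as the authors' count-based comparison of the same pups did report differentially expressed genes. Neither Thra nor Thrb was among those. At an unadjusted p under 0.05 the count was again 0 of 9, against 2383 of 14606 rows (16.3%; 8.11% higher and 8.2% lower in PTU exposed pups). It was 1 of 9 without control pup 1, where Rxrb had an unadjusted limma p of 0.0384 (adjusted p = 0.286), and without PTU pup 4, where Thra had 0.0287 (adjusted p = 0.232). The groups were free of overlap in 0 of 9 genes and in 0.596% of all rows, and 0 of 9 had an exact permutation p under 0.05, where the smallest p the design allows is 0.000583. On average 6 of the 9 were higher in PTU exposed pups (50.7% of all rows were) and 3 were lower (49.3% of all rows), but all 9 were higher once each pup was scaled to an equal total. That scaling put the median of all rows at 0.20 on the log2 scale, where the 3 most abundant rows held 23.9% to 60.1% of a pup's counts, and relative to it 6 of the 9 again lay above. The median size of the log2 fold change was 0.072 among the 9 genes and 0.17 over all rows. No comparison with rows of similar normalized count was made, so the smaller median is not read as a trait of these genes. The CV was higher in PTU exposed than in control pups for 7 of the 9 genes, the exceptions being Rxrb and Ncor1, and for 60.1% of all rows. Intervals reached furthest upward for the TH receptors: an increase of 43.2% in Thra or 47.8% in Thrb lay inside them.

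The 9 genes were then compared with each other within groups, as log2 values centred on the group mean over the 13 pups. Of 36 pairs, 17 had a positive and 19 a negative Pearson r, and 4 had an adjusted permutation p of 0.0473 for r. Under the deposited scaling Hdac3 and Med1 ran opposite to each other (r = -0.84 and rho = -0.69, adjusted permutation p for rho = 0.166). Rxra and Ncoa2 did so too (r = -0.78 and rho = -0.75, adjusted permutation p for rho = 0.130). With an equal total per pup, the only other scaling tried for the pairs, r was 0.58 and 0.074. Ncor1 ran with Med1 (r = 0.77; rho = 0.70, adjusted permutation p = 0.130) and with Ncoa2 (r = 0.73; rho = 0.79, adjusted permutation p = 0.0774), so none of the 4 passed by rho. Without the pair of pups farthest from the median, r was -0.66 for Hdac3 with Med1, -0.72 for Rxra with Ncoa2, 0.68 for Ncor1 with Med1 and 0.48 for Ncor1 with Ncoa2. PTU pup 4, the pup with the most Hdac3 and the least Ncor1 and Med1, was left out in all 4. Thra and Thrb had r = 0.032 and rho = -0.093, and r = -0.70 without PTU pups 1 and 4. Scaling each pup to an equal total divided all genes of a pup by 1 shared factor, which ran from 0.72 to 1.39. With it, 24 of the 36 pairs passed, all with a positive r. Ncor1 then had r = 0.97 with Med1 and 0.96 with Ncoa2, and Rxrb, negative with Ncor1, Ncoa1, Ncoa2 and Med1 as deposited, had r from 0.75 to 0.82 with them. A factor shared by all genes of a pup tends to raise r between genes in general, so this scaling cannot tell which signs hold. Neither count of passing pairs was set beside the share over all pairs of genes.

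**Figure D3:**
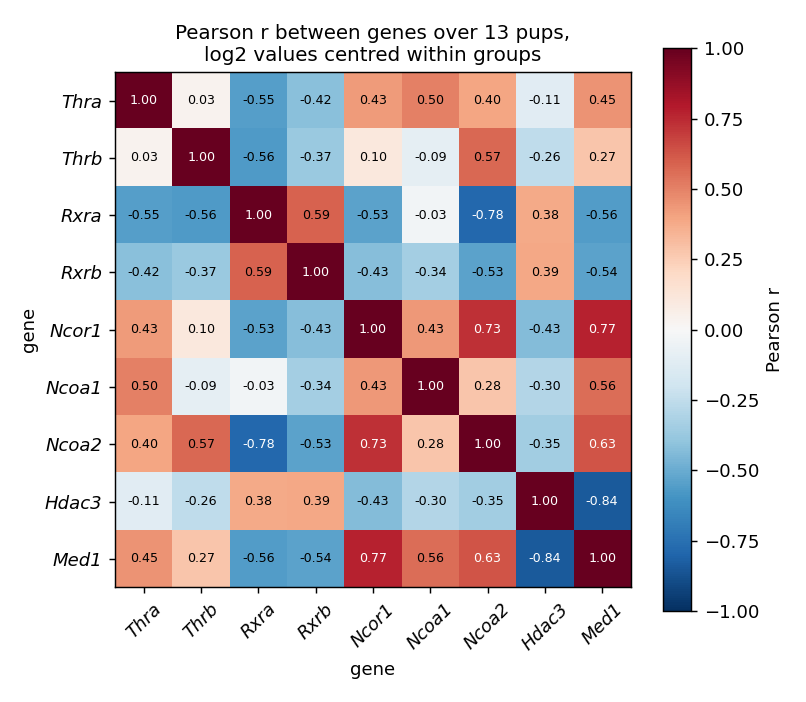
Pearson r between the 9 genes over 13 pups (both axes list the genes), on log2 values centred within groups, with red for positive and blue for negative r. Ncor1, Ncoa1, Ncoa2 and Med1 have positive r with one another, and Rxra and Rxrb have negative r with them. With an equal total per pup, their r with these genes is 0.074 to 0.24 for Rxra and 0.75 to 0.82 for Rxrb. That scaling moves all genes of a pup alike and tends to raise r in general.

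Thra was also set beside the marker scores, the mean log2 level of each marker list, because its highest pup was the pup with the highest neuron sum, 117667. Within groups, Thra had r = 0.82 and rho = 0.66 with the neuron score (adjusted permutation p = 0.133 and 0.202 over 27 relations of 9 genes and 3 scores). Without PTU pups 1 and 4, r was 0.37, so the relation rests on those pups. With the neuron score as a covariate the log2 fold change of Thra was 0.093 in place of 0.24. With the progenitor score Thra had r = -0.71 and rho = -0.85 (adjusted permutation p = 0.133 and 0.0374), and r = -0.60 without PTU pups 6 and 1. Ncoa1 had r = 0.73 and rho = 0.81 with the neuron score (adjusted permutation p = 0.133 and 0.0374), and r = 0.65 without the same pups as for Thra. A ranking of 11026 genes by Pearson r over the 13 pups put Usp12 (r = 0.94), Ptprr (0.93) and Gak (0.93) closest to Thra. Closest to Thrb were Ostm1 (0.89), Dyrk3 (0.87) and Efhc2 (0.86). These are the highest r of many, given without a chance level and without values for pups left out. The SD of Usp12 was 71.3 normalized counts in control pups and 319 in PTU exposed pups. It was 45.5 and 309 for Ptprr, and 112 and 430 for Gak. How far the r with Thra rest on PTU pup 1 was not tested.

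**Figure D4:**
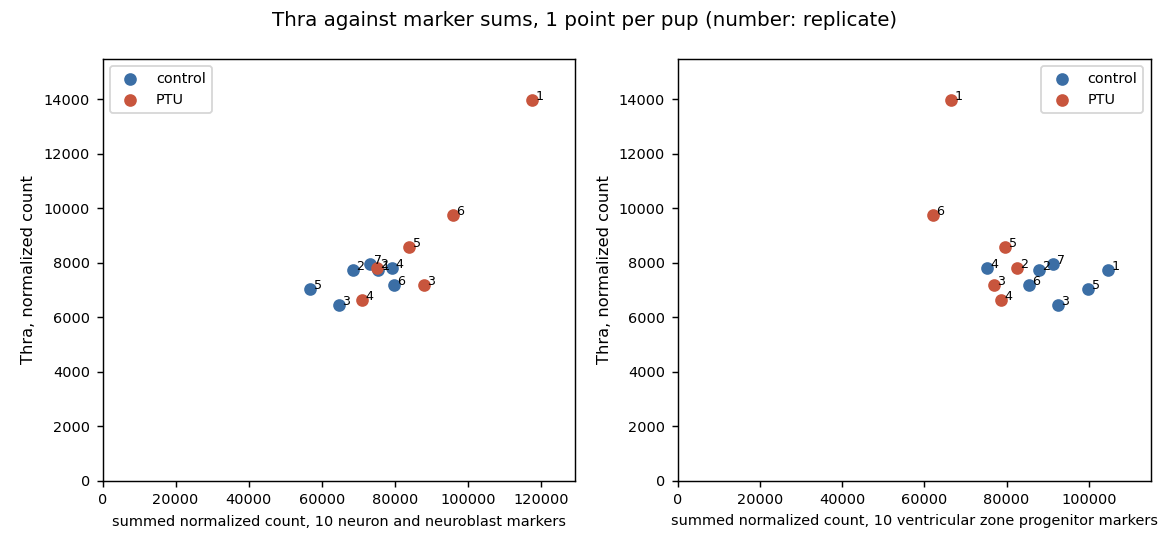
Normalized count of Thra (vertical axes) against the summed normalized count of 10 neuron and neuroblast markers (left) and 10 progenitor markers (right), 1 point per pup, 7 control in blue and 6 PTU exposed in red. PTU pup 1 lies at 13992 Thra and 117667 neuron marker counts, apart from the other 12 pups.

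The other genes of the pathway were taken from 5 lists with 126 names, of which 113 were found and tested. None had an adjusted p of 0.05 or less in limma, and 15 (13.3%) had an unadjusted p under 0.05, beside 16.3% of all rows. The median log2 fold change was 0.02 for 31 Mediator subunits (17 higher, 14 lower), -0.02 for 22 corepressors and deacetylases (10 higher, 12 lower), -0.15 for 20 other nuclear receptors (4 higher, 16 lower), 0.08 for 25 coactivators (15 higher, 10 lower) and 0.21 for 15 TH response genes (12 higher, 3 lower). Several of these medians rest on single pups or on the marker covariates. Without PTU pup 1 the TH response genes had 8 higher and 7 lower with a median of 0.049, and with the neuron score as a covariate 8 and 7 with a median of 0.039. Their median was 0.082 (11 higher, 4 lower) with array weights and 0.33 (12 higher, 3 lower) with the choroid plexus score as a covariate, under which the coactivator median was 0.037. Without PTU pup 6 the median of the other nuclear receptors was -0.075 (5 higher, 15 lower), and that of the coactivators was 0.042 without PTU pup 2 and 0.050 without control pup 5. With single pups left out, the medians of the Mediator subunits (-0.0085 to 0.032) and of the corepressors and deacetylases (-0.061 to 0.012) took either sign. The scaling also mattered: with an equal total per pup, 96 of the 113 were higher, as were 12 of the 20 other nuclear receptors, although 16 of those 20 still lay below the median of all rows.

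For each list the genes with the smallest p are given, none of which passed after adjustment in limma. Thrsp, a lipogenic gene known as a TH target in liver, averaged 272 ± 24.6 normalized counts in the control group and 192 ± 34.7 in the PTU exposed group. The difference was -0.52 on the log2 scale (limma adjusted p = 0.140), and it was the only gene of the 113 whose groups did not overlap, which 0.596% of all rows did not. In the authors' count-based comparison of the same pups, Thrsp was reported as significantly lower, so its missing call here holds for limma. Hr, a corepressor gene that TH activates in brain, had 231 ± 117 and 334 ± 89.0 (log2 fold change 0.68), and Mbp, the myelin basic protein gene, had 533 ± 243 and 812 ± 353 (0.66, and 0.38 without control pup 5). Among other nuclear receptors, Ppard (-0.30), Nr1h2 (-0.27) and Nr1d1 (-0.39) were lower on average, with adjusted p of 0.175, 0.193 and 0.203, and all 6 PTU exposed pups lay below the control mean in each. Nr1d1, a clock gene that represses transcription, had 298 ± 35.9 normalized counts in control pups and 228 ± 40.0 in PTU exposed pups.

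Hdac8, a deacetylase of the same class as Hdac3, had 348 ± 37.4 and 264 ± 45.1 normalized counts (log2 fold change -0.41, limma adjusted p = 0.175), beside Mta2 (-0.23) and Sin3b (0.24), scaffolds of other deacetylase complexes. The Mediator subunit Med25, which also binds nuclear receptors, had 2864 ± 199 and 2436 ± 227 (-0.24, adjusted p = 0.174), with all 6 PTU exposed pups below the control mean, whereas Med11 (0.40) and Med31 (0.22) were higher on average. The coactivator genes with the smallest p were Ncoa7 (0.40), Pprc1 (0.24) and Ncoa6 (0.20), with adjusted p from 0.203 to 0.278.

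**Figure D5:**
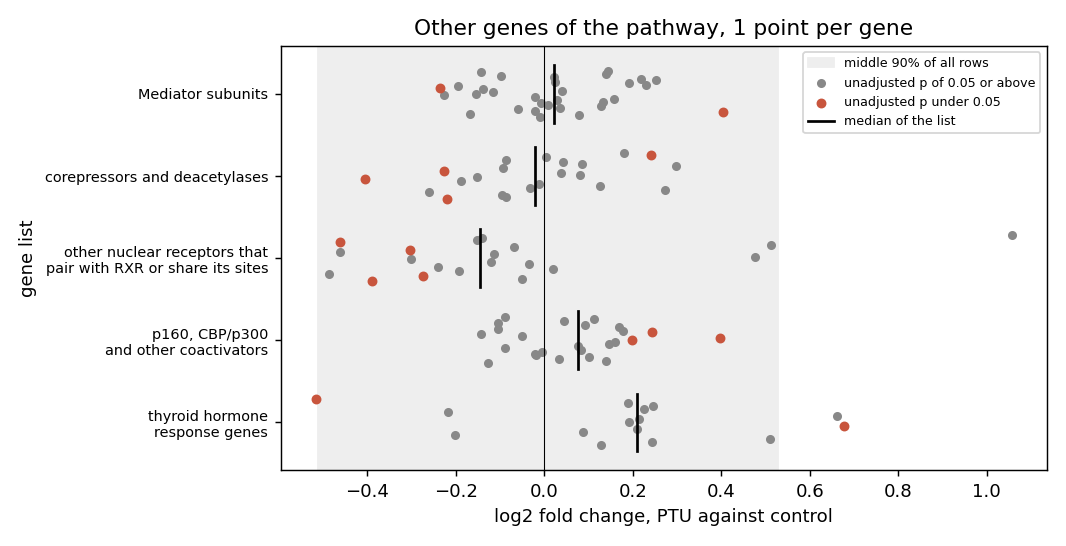
Log2 fold change of the 113 other pathway genes (horizontal axis), 1 point per gene, in 5 lists (vertical axis), with list medians as bars, genes with an unadjusted p under 0.05 in red and the middle 90% of all rows shaded. List medians run from -0.15 for other nuclear receptors (-0.075 without PTU pup 6) to 0.21 for TH response genes (0.049 without PTU pup 1), and 15 of the 113 points are red.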

How the data were processed

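The authors trimmed reads with Trimmomatic, aligned them to mRatBN7.2 (rn7) with STAR 2.7.8a, and quantified and scaled them in Partek by expectation/maximization and the median ratio method. What they deposited is therefore a scaled signal per row, here named the normalized count. The methods name a RefSeq annotation, while the rows carry Ensembl identifiers. The authors' comparison columns (p-value, FDR, ratio, log2 ratio, signed fold change and group means) were not used. At a tolerance of 0.05, 88.7% to 90.3% of values between 20 and 150 were whole multiples of the smallest step, which was used to estimate reads. No count model was fitted, as the deposited values are scaled and are not raw counts.

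Rows averaging 10 or more over the 13 pups were compared as log2(normalized count + 1) with limma 3.58.1 in R 4.3.3 (empirical Bayes with a variance trend, Benjamini-Hochberg adjustment over 14606 rows, threshold 0.05). Exact permutation tests used all 1716 regroupings of the 13 pups. Correlations used 100000 permutations within groups. Python 3.11.15 and scipy 1.17.1 did the rest. The scripts were tested on simulated data. Genes named from the lists were the 3 with the smallest p in each. Leaving out single pups for these genes was chosen after seeing the data. The 9 genes, the lists and the markers were chosen with earlier results of these data known. Pups came from separate litters. Transcript lengths were not used here, so no level is compared between genes.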

Additional observations from a re-analysis of the deposited data

Results flagged for a closer look

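Each of the 9 genes was checked in each group for a pup set apart from the rest, by Dixon's ratio of the gap to the range, in 18 groups, and chance alone gives a pup past the limit in about 5% of such groups. Thrb in control pup 3 was 302.1 normalized counts, with the next control pup at 226, a ratio of 0.609. Ncor1 in PTU pup 4 was 6682, with the next PTU exposed pup at 8204, a ratio of 0.719. PTU pup 1, at 13992 in Thra, did not pass this limit.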

How the results depend on the processing

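None of the 9 genes had an adjusted p of 0.05 or less under any of 27 alternatives, and Thra, Ncoa1, Ncoa2 and Med1 stayed higher in PTU exposed pups in all 27. The log2 fold change of Thra ran from 0.10 without PTU pup 1 to 0.31 without PTU pup 4 when pups were left out in turn. With an equal total per pup, Rxra was 0.10, Rxrb 0.0255, Hdac3 0.16, Thra 0.44, Thrb 0.27, Ncor1 0.23, Ncoa1 0.30, Ncoa2 0.26 and Med1 0.27, where the median of all rows was 0.20. The pathway genes with an unadjusted p under 0.05 numbered 8 in place of 15, 24 pairs of genes passed, and rows with an unadjusted p under 0.05 split into 1584 higher and 81 lower in place of 1185 and 1198. With array weights, Thrb was -0.0777, Rxra -0.0338 and Hdac3 -0.0851, and 40 rows were called. With the choroid plexus score as a covariate, Ncor1 was -0.0513, Hdac3 0.0456, Thrb 0.30, Med1 0.0072, Ncoa2 0.0277 and Rxra -0.0281, and 2 rows were called. With the neuron score, Rxra was 0.0148, Ncor1 -0.0128, Thra 0.093, Thrb 0.0116, Rxrb -0.11, Ncoa1 0.0562, Ncoa2 0.021, Med1 0.0107 and Hdac3 -0.0002. With pups left out in turn, Thrb ran from -0.0426 to 0.23 (below 0 without PTU pup 1, 2 or 3), Ncor1 from -0.0135 (without control pup 5) to 0.0851, and Hdac3 from -0.13 to 0.0382 (without PTU pup 3). Rxra ran from -0.19 (without PTU pup 5) to -0.0003 (without PTU pup 1), Ncoa2 from 0.0215 (without PTU pup 1) to 0.10 (without PTU pup 4), and Med1 from 0.0264 (without PTU pup 3) to 0.12 (without PTU pup 4). Rows called ran from 0 to 179 (without PTU pup 2; 7 without control pup 6), and pathway genes with an unadjusted p under 0.05 from 13 to 23 (without PTU pup 2). The cause of these shifts was not tested. With quantile normalization, Ncor1 was 0.0111. With the replicate number as a block, 18 rows were called, none of them among the 9 genes or the lists. Under this block Ncor1 was 0.0022, Hdac3 -0.0189 and Med1 0.041, and 5 TH response genes in place of 2 had an unadjusted limma p under 0.05. Same-numbered pups had r from -0.07 to 0.20 between their deviations, over 0.1 for 4 of the 6 numbers, and 4 of 12 pups were closest to their own number. As not every r was over 0.1, the numbers were not read as pairs. Depth limits Thrb and Rxra most.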

Other observations

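Rxrg, the gene of the third retinoid X receptor, and Rarb, a retinoic acid receptor gene that retinoic acid itself induces, were chosen after their values were seen. Rxrg had a median of 71.6 normalized counts in control pups, with values from 12.1 to 162, and a median of 117 in PTU exposed pups, where PTU pup 6 stood at 513. The log2 fold change was 1.06 ± 0.52 (limma adjusted p = 0.324), and it was 0.69 without PTU pup 6 and 0.66 without control pup 5, alternatives chosen after seeing the data. Rarb had medians of 88.3 and 105, with PTU pup 6 at 711 and the highest control pup at 193 (log2 fold change 0.51 ± 0.45, limma adjusted p = 0.590), and the log2 fold change was 0.022 without PTU pup 6 and 0.34 without control pup 5. PTU pup 6 also had the lowest Thrb of the 13 pups (131) and the lowest choroid plexus sum (23856).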
